A study of Mus musculus with 17 samples.

Results

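The ID proteins Id1, Id2 and Id3 and the E-protein transcription factors Tcf3, Tcf4 and Tcf12 were followed in mouse B cells and bone marrow-derived dendritic cells (BMDC). These 6 genes were chosen by name with their levels over the groups of both cell types already in view, in the same libraries and contrasts described here, so their values are given as a description and no p-value is attached to them. All 6 were found among 55491 rows in the count table of each cell type, and all 6 passed the filter on low counts in both, which left 16180 genes in B cells and 14614 in BMDC. The fourth ID gene, Id4, had between 0 and 6 counts per library and did not pass it.

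E proteins are basic helix-loop-helix factors that bind DNA as dimers at the E-box, a short motif with the letters CANNTG. ID proteins carry the dimerisation helices but lack the basic DNA-binding region, so an ID protein bound to an E protein keeps it off the E-box. In the B lineage the E proteins, Tcf3 foremost, drive the genes of antigen receptor assembly and signalling. In dendritic cells Tcf4 maintains the plasmacytoid type and Id2 goes with the conventional type, while NK cells and other innate lymphocytes depend on Id2.

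The study contains 17 libraries. The B cells came from spleen and were incubated with MSA2 plus IPI-549 (3 libraries, called the combination here), with MSA2 (3 libraries) or with no drug (Control, 3 libraries). The BMDC had the same groups, with 2, 3 and 3 libraries. MSA2 activates STING, the sensor adaptor of the cytosolic DNA response, and IPI-549 (eganelisib) is an inhibitor of the leukocyte lipid kinase PI3Kγ. According to the series text the mice were KPC animals, which develop pancreatic cancer from alleles expressed in the pancreas, but the genotype label of every library says WT. All 17 libraries carry the word Control in their treatment label, so the groups follow the titles, and replicates 1, 2 and 3 are numbered by the suffix of the title, as in the plots. No age, dose, time or purification step is given, no group received IPI-549 alone, and it is not stated whether the replicates of a group came from separate mice. Any p-value below may therefore measure technical spread only.

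Depth was 41093440 to 51433008 counts per library in B cells and 34760025 to 73166643 in BMDC. The B cell labels were checked against 12 B cell marker genes, whose summed level was 9048 to 9806 CPM (counts-per-million values, scaled by the TMM method) in combination libraries, 4671 to 5139 CPM in MSA2 libraries and 8922 to 9517 CPM in Control libraries. The 3 MSA2 libraries of B cells stood apart in markers of other cells. The 10 neutrophil markers summed to 0.330 to 0.931 CPM in combination, 1549 to 1650.1 CPM in MSA2 and 2.16 to 33.3 CPM in Control libraries. For 12 monocyte and macrophage markers the sums were 46.9 to 49.2 CPM in combination, 1387 to 1579.7 CPM in MSA2 and 44.9 to 64.0 CPM in Control libraries. For 10 NK cell markers they were 10.1 to 14.9 CPM in combination, 585 to 678 CPM in MSA2 and 18.7 to 27.4 CPM in Control libraries. The 8 erythroid markers in the table summed to 18.2 to 22.6 CPM in combination, 1055 to 1228 CPM in MSA2 and 21.7 to 44.9 CPM in Control libraries. The 12 T cell markers summed to 335 to 362 CPM in combination, 1258 to 1602 CPM in MSA2 and 407 to 421 CPM in Control libraries, and Cd2, which B cells also express, made up most of the sums in combination and Control libraries. Cd3e, which defines T cells, was at 0 in all 3 combination libraries, and Elane, a neutrophil granule gene, was at 0 in all combination and Control libraries. By their library numbers the MSA2 libraries of B cells also come after all the others, so treatment and library order cannot be told apart there. The BMDC expressed Itgax, the CD11c gene, at 1270.1 to 1889 CPM, with the macrophage gene Lyz2 at 10713 to 15732 CPM and the dendritic cytokine receptor gene Flt3 at 0.247 to 1.08 CPM.

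In the GRCm38 build Id1 (ENSMUSG00000042745) lies on chromosome 2 from 152736251 to 152737410 and Id2 (ENSMUSG00000020644) on chromosome 12 from 25093799 to 25097140. Id3 (ENSMUSG00000007872) lies on chromosome 4 from 136143497 to 136145755. Tcf3 (ENSMUSG00000020167) lies on chromosome 10 from 80409514 to 80433647 and Tcf12 (ENSMUSG00000032228) on chromosome 9 from 71842688 to 72111871. All 6 are protein-coding, and no exon of theirs overlapped an exon of another gene in the GENCODE annotation of that build.

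Promoter sequence of 4 of the 6 genes (Id2, Id3, Tcf3 and Tcf12) was taken from RefSeq on GRCm38.p6. The 250 bases before each start were searched on both strands for E-boxes. The search also covered motifs of EGR factors, the BMP response, the interferon response (ISRE) and κB. E-box matches are shown because the E-box is the motif the family acts through. The capitals mark the match, and each run is written 5′ to 3′ on the strand of the gene.
Id2, chr12:25096274-25096297, minus strand: ttgccacccCAGCTGggctctcgc
Tcf3, chr10:80433675-80433698, minus strand: gggcgtggtCACTTGggggcgtgg
Tcf12, most distal start, chr9:72112045-72112068, minus strand: gatgctgccCAGCTGcgtccccgt
Tcf12, next start, chr9:72111336-72111359, minus strand: agggcggccCAAGTGggaggtgga
The Id2 window also held GGCGCC, a motif of BMP-responsive Id promoters, and the Id3 window held 4 matches to a loose form of the κB motif, of which 2 overlap and 1 is shown. The first Tcf12 windows held the κB form as well. The last of the 3 Tcf12 windows held 1 match to the ISRE letters and 0 E-boxes.
Id2, chr12:25096309-25096332, minus strand: ggccccctgGGCGCCcagcgcaca
Id3, chr4:136143764-136143787, plus strand: aataaggGGGTGTGTCCtagagag
Among 32851 promoter windows of that length, 66.2% held an E-box, 9.59% held GGCGCC, 45.8% held the κB form and 2.98% held the ISRE letters. No E-box letters were found in the Id3 window. A match is a description of the letters and not a bound site.

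In B cells the ID genes Id1 and Id2 were higher in MSA2 libraries than in Control libraries and the 3 E-protein genes were lower, while the combination libraries were closer to Control than to MSA2 for all of these. In BMDC Id1 and Id3 were several-fold lower in both treated groups and Tcf4 was higher. Under MSA2 the B cell fold changes of Id1, Tcf4 and Tcf12 thus had the opposite sign to those in BMDC. Genes whose groups did not overlap were common. In B cells they made up 53.9% of all genes tested for MSA2 against Control. For the combination the shares were 18.7% against Control and 47.2% against MSA2. In BMDC the shares were 41.5%, 44.7% and 27.3%, in the same order. The positions of libraries given below for each gene are descriptions to be read beside these shares.

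Id1, an ID gene induced by BMP signals in many cells, differed most between the groups of B cells. Its level was 0.563, 0.275 and 0.528 CPM in combination libraries, 4.78, 6.06 and 5.81 CPM in MSA2 libraries and 0.619, 0.853 and 0.630 CPM in Control libraries. Each MSA2 library was above every other library, and the combination libraries lay below all Control libraries. These levels rest on 12 to 26 counts in combination, 220 to 277 counts in MSA2 and 28 to 39 counts in Control libraries. On the log2 scale the fold change was 2.98 ± 0.24 (SE) for MSA2 against Control, -3.59 ± 0.26 for the combination against MSA2 and -0.61 ± 0.29 for the combination against Control.

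Id2 had 28.7, 28.9 and 34.8 CPM in combination libraries, 71.9, 66.0 and 99.1 CPM in MSA2 libraries and 37.3, 37.9 and 40.4 CPM in Control libraries. The groups did not overlap, with MSA2 highest and the combination lowest. The log2 fold change was 1.04 ± 0.14 for MSA2 against Control, -1.36 ± 0.14 for the combination against MSA2 and -0.32 ± 0.14 for the combination against Control.

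Id3, which in lymphocytes is induced by antigen receptor signalling, did not follow the groups in B cells. Its level was 15.2, 14.3 and 47.4 CPM in combination libraries, 13.7, 13.9 and 44.3 CPM in MSA2 libraries and 33.6, 34.6 and 33.2 CPM in Control libraries. In both treated groups the library of replicate 3 was above all Control libraries and the other libraries were below them, so the groups overlapped. The ratio of combination to MSA2 was 1.11, 1.03 and 1.07 in replicates 1, 2 and 3. The ratio of MSA2 to Control was 0.406, 0.401 and 1.34, and that of the combination to Control 0.450, 0.414 and 1.43. Each ratio divides libraries of the same number, although the titles state no pairing. Over all libraries the log2 fold change was -0.50 ± 0.50 for MSA2 against Control, -0.40 ± 0.50 for the combination against Control and 0.10 ± 0.50 for the combination against MSA2, which ran between -0.70 without replicate 3 of the combination and 0.90 without replicate 3 of MSA2. It was -1.29 for MSA2 against Control without replicate 3 of MSA2, -1.20 for the combination against Control without replicate 3 of the combination, and -1.303 (MSA2) and -1.20 (combination) against Control without replicate 3 of any group, a choice made after the values were seen. These values are descriptions, since the libraries left out were those seen to differ.

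**Figure D1:**
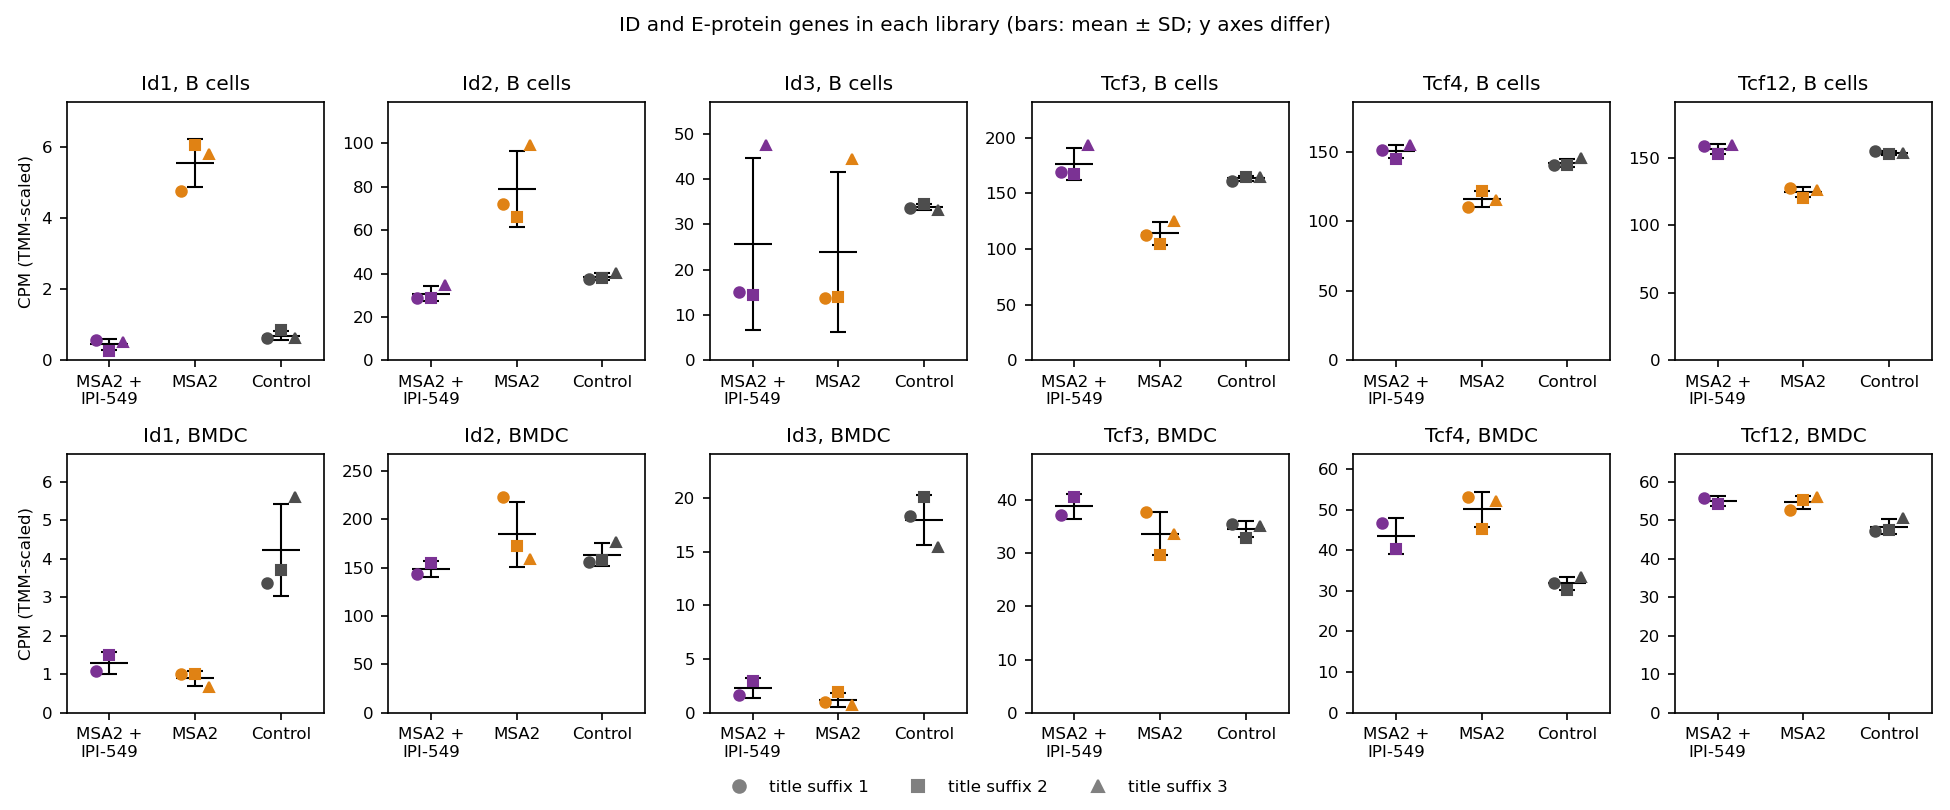
Level of each gene (y axis, TMM-scaled CPM, with a separate axis per panel) in every library of B cells (top) and BMDC (bottom), by group, with the mean as a long bar and the SD as whiskers. In B cells the MSA2 points of Id1 lie between 4.78 and 6.06 CPM, above all others, and those of Id3 split by replicate, with replicate 3 at 44.3 CPM.

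Tcf3, the E-protein gene with the leading part in B cell development, had 169, 167 and 193 CPM in combination libraries, 112, 105 and 125 CPM in MSA2 libraries and 161, 164 and 165 CPM in Control libraries. All MSA2 libraries were below all others, and all combination libraries were above all Control libraries. Fitted log2 fold changes were -0.52 ± 0.08 for MSA2 against Control, 0.63 ± 0.08 for the combination against MSA2 and 0.11 ± 0.08 for the combination against Control.

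Tcf4, the E-protein gene best known from plasmacytoid dendritic cells (ENSMUSG00000053477, chromosome 18 from 69343356 to 69689079), had 151, 145 and 155 CPM in combination libraries, 111, 122 and 115 CPM in MSA2 libraries and 140.3, 140.5 and 145 CPM in Control libraries. The MSA2 libraries were below all others, and the combination and Control libraries overlapped. The log2 fold change was -0.29 ± 0.07 for MSA2 against Control and 0.37 ± 0.07 for the combination against MSA2.

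Tcf12, which encodes the E protein HEB, had 158, 152 and 159 CPM in combination libraries, 127, 120.2 and 126 CPM in MSA2 libraries and 155, 152 and 153 CPM in Control libraries. The pattern was that of Tcf4, with MSA2 below and the other groups overlapping. As a log2 fold change this was -0.30 ± 0.06 for MSA2 against Control and 0.33 ± 0.06 for the combination against MSA2. Against Control the combination gave 0.08 ± 0.07 for Tcf4 and 0.03 ± 0.06 for Tcf12.

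The B cell markers and the markers of other cells moved with these differences. All 12 B cell markers fell in MSA2 libraries against Control, with a median log2 fold change of -0.87 over the list beside -0.01 over all genes tested. All 10 neutrophil, 12 monocyte and macrophage, 10 NK cell and 8 erythroid markers and 11 of 12 T cell markers rose. The calls are from edgeR's quasi-likelihood test at a Benjamini-Hochberg adjusted p under 0.05. Of 10 dendritic cell markers, several of which B cells share, 5 rose and 3 fell. In bulk libraries, fewer cells of a type and less RNA per cell cannot be told apart, and the part of the other cells' RNA in the levels of the 6 genes was not tested. Per 100 CPM of summed B cell markers, Tcf3 stood at 1.84 to 1.97 CPM in combination, 2.24 to 2.43 CPM in MSA2 and 1.73 to 1.84 CPM in Control libraries. The same ratio of Tcf4 was 1.58 to 1.64 in combination, 2.24 to 2.61 in MSA2 and 1.53 to 1.57 in Control libraries. For Tcf12 it was 1.62 to 1.72 in combination, 2.45 to 2.58 in MSA2 and 1.61 to 1.71 in Control libraries. The 3 E-protein genes were thus lower in MSA2 libraries as a share of all counts and higher as a share of B cell marker counts. The E-protein counts in that share include those of any other cells in the library, so it is no level per B cell.

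In B cells 5 of the 6 genes passed the threshold for MSA2 against Control, 2 higher and 3 lower, where 43.4% of all genes tested passed it. Since the genes were chosen on these contrasts, nothing is read from the counts set beside the background. The count was again 5 for the combination against MSA2, with 3 higher and 2 lower, where 37% of all genes passed. Against Control, 0 of the 6 passed for the combination in edgeR, DESeq2 and limma-voom alike, and 1 had an unadjusted p under 0.05 in edgeR, where 1.06% of all genes passed after adjustment. The comparisons share their MSA2 or Control libraries, so their counts are not independent.

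In BMDC Id1 had 1.08 and 1.4997 CPM in combination libraries, 0.999, 1.01 and 0.673 CPM in MSA2 libraries and 3.38, 3.70 and 5.59 CPM in Control libraries. Every treated library was below every Control library. The log2 fold change was -2.22 ± 0.25 for MSA2 against Control and -1.71 ± 0.28 for the combination against Control.

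Id3 showed the largest difference among the 6 genes in BMDC. It had 1.64 and 2.97 CPM in combination libraries, 0.973, 1.93 and 0.673 CPM in MSA2 libraries and 18.4, 20.1 and 15.5 CPM in Control libraries. All treated libraries were below all Control libraries, and the treated groups overlapped each other. The counts behind these levels were 65 and 103 in combination libraries, 27 to 138 in MSA2 libraries and 537 to 896 in Control libraries. On the log2 scale the fold change was -3.82 ± 0.30 for MSA2 against Control, which is -4.45 without replicate 2 of MSA2, and -2.98 ± 0.32 for the combination against Control, which is -3.45 without replicate 2 of the combination.

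Id2 had 143 and 155 CPM in combination libraries, 223, 172 and 159 CPM in MSA2 libraries and 155, 158 and 177 CPM in Control libraries. MSA2 and Control libraries overlapped, and the combination libraries were below all others. The log2 fold change was 0.17 ± 0.11 for MSA2 against Control and -0.14 ± 0.12 for the combination against Control.

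Tcf4 had 46.6 and 40.3 CPM in combination libraries, 53.0, 45.2 and 52.1 CPM in MSA2 libraries and 31.9, 30.2 and 33.3 CPM in Control libraries. All treated libraries were above all Control libraries. Fitted log2 fold changes were 0.65 ± 0.08 for MSA2 against Control and 0.45 ± 0.09 for the combination against Control, which is 0.34 and no longer past the threshold without replicate 1 of the combination.

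Tcf12 had 55.9 and 54.2 CPM in combination libraries, 52.7, 55.3 and 56.0 CPM in MSA2 libraries and 47.2, 47.4 and 50.7 CPM in Control libraries. The treated libraries were again above all Control libraries, by a log2 fold change of 0.18 ± 0.06 for MSA2 and 0.19 ± 0.07 for the combination. The MSA2 value was at the edge of the threshold and lost it in 11 of the alternatives, and with upper quartile factors it was 0.10. Among the others were leaving out replicate 1 (0.16) or 2 (0.16) of Control, replicate 2 (0.17) or 3 (0.16) of MSA2, or replicate 1 (0.18) or 2 (0.18) of the combination. Tcf3 had 37.2 and 40.5 CPM in combination libraries, 37.8, 29.7 and 33.8 CPM in MSA2 libraries and 35.6, 32.8 and 35.3 CPM in Control libraries, with MSA2 and Control overlapping. Its log2 fold change was -0.04 ± 0.09 for MSA2 against Control and 0.17 ± 0.10 for the combination against Control.

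Between the treated groups of BMDC the log2 fold changes, combination against MSA2, were 0.51 ± 0.30 for Id1, -0.31 ± 0.12 for Id2, 0.84 ± 0.37 for Id3, 0.21 ± 0.10 for Tcf3, -0.20 ± 0.09 for Tcf4 and 0.01 ± 0.07 for Tcf12. The libraries of the groups did not overlap for Id1 and Id2, which is 2 of 6 beside 27.3% of all genes, and overlapped for the others. The sign of the Tcf12 value depended on the scaling and was negative with DESeq2 or RLE factors. In this comparison 0 of the 6 genes passed in edgeR, DESeq2 and limma-voom, with 2 at an unadjusted p under 0.05, and 0% of all genes passed in edgeR. At an unadjusted p under 0.05 there were 1594 genes, and DESeq2 called 158 and limma-voom 3 after adjustment. For MSA2 against Control 4 of the 6 passed, 2 higher and 2 lower, where 28.2% of all genes passed. The combination against Control gave 3 calls, 1 higher and 2 lower, where 12.9% of all genes passed.

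**Figure D2:**
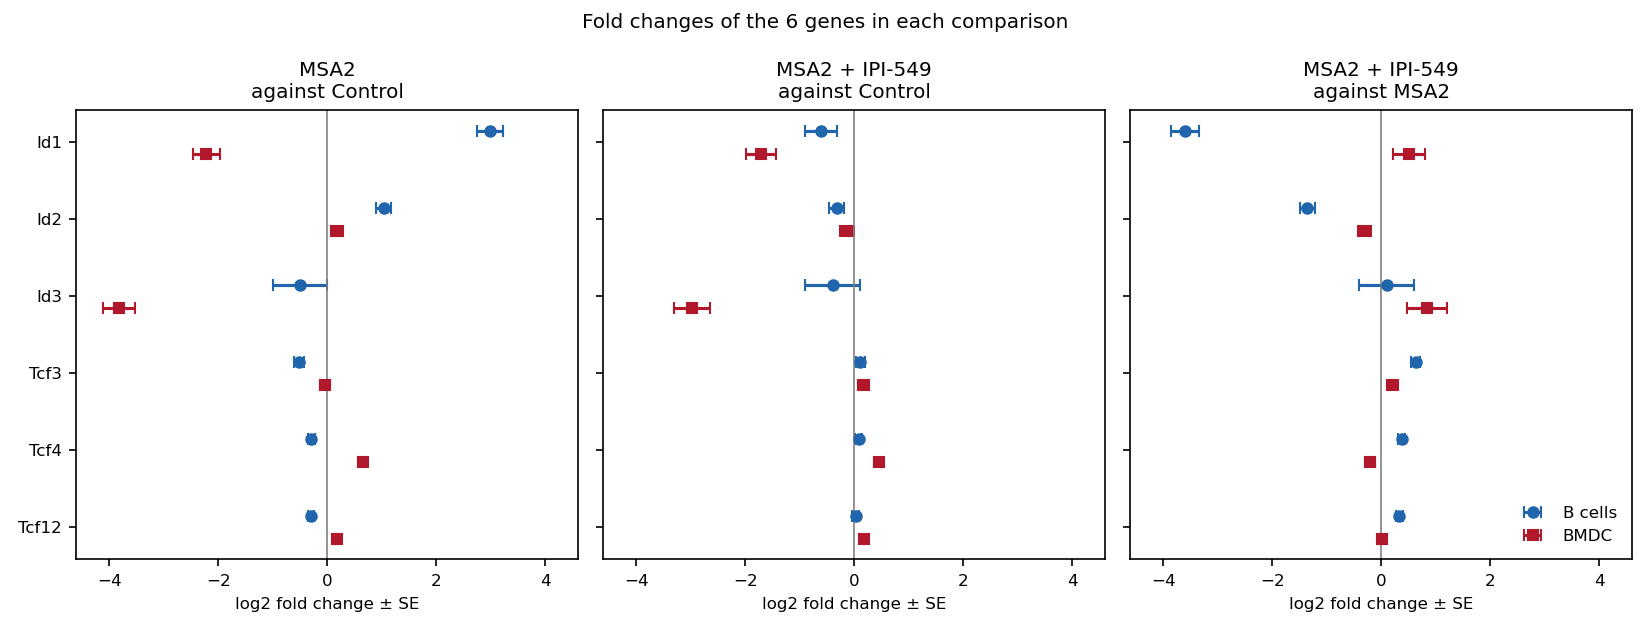
log2 fold change of each gene (x axis, positive is higher in the group named first above the panel) in B cells (circles) and BMDC (squares), with whiskers of 1 SE, which are hidden where they are smaller than the symbol. Id1 lies at 2.98 in B cells and at -2.22 in BMDC for MSA2 against Control, and for the combination against Control the B cell points lie between -0.61 and 0.11 while Id1 and Id3 of BMDC lie at -1.71 and -2.98.

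Levels can be set against each other between genes only per length, so CPM was divided by the kilobases of annotated exon, with all exons of a gene merged. This length is long for Tcf4 and Tcf12, which have many alternative exons, and understates them. In Control B cells the order was Tcf3 at 40.5 ± 0.550 (SD, n = 3), Id3 at 18.9 ± 0.400, Id2 at 15.8 ± 0.664, Tcf12 at 9.88 ± 0.0811, Tcf4 at 5.19 ± 0.102 and Id1 at 0.604 ± 0.114 CPM per kb. Each step exceeded the spread over libraries. In Control BMDC the order was Id2 at 67.1 ± 4.79, Id3 at 10.04 ± 1.3, Tcf3 at 8.56 ± 0.371, Id1 at 3.64 ± 1.03, Tcf12 at 3.12 ± 0.125 and Tcf4 at 1.16 ± 0.0560 CPM per kb. There Id3 and Tcf3, and Id1 and Tcf12, were neighbours within or close to their spread. In MSA2 B cells Id2 averaged 32.4 ± 7.25 and Tcf3 28.2 ± 2.56 CPM per kb, so these neighbours lay within their spread.

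Between the cell types, mean levels of Control BMDC and Control B cells were 4.22 and 0.701 CPM for Id1, 164 and 38.5 CPM for Id2 and 17.98 and 33.8 CPM for Id3. They were 34.6 and 163 CPM for Tcf3, 31.8 and 142 CPM for Tcf4 and 48.4 and 153 CPM for Tcf12. Id1 and Id2 were thus 6.03-fold and 4.24-fold higher in BMDC, and the E-protein genes were 4.73-fold (Tcf3), 4.47-fold (Tcf4) and 3.17-fold (Tcf12) higher in B cells. The tables were scaled separately and hold separate sets of libraries, so cell type and library set cannot be told apart.

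The sum of the 3 ID genes over the sum of the 3 E-protein genes, per kb, gives a transcript ratio for each library. The merged exon length understates Tcf4 and Tcf12, and so also the E-protein sum. In B cells this ratio was 0.359, 0.356 and 0.647 in combination libraries, 1.03, 1.05 and 1.63 in MSA2 libraries and 0.631, 0.640 and 0.636 in Control libraries. All MSA2 libraries were above all others, and replicate 3, where Id3 was high, gave the highest ratio in both treated groups. The means were 0.454 ± 0.167 in combination, 1.24 ± 0.338 in MSA2 and 0.635 ± 0.00468 in Control libraries (SD, n = 3 each). In BMDC the ratio was 4.17 and 4.42 in combination libraries, 6.31, 5.77 and 4.76 in MSA2 libraries and 5.91, 6.46 and 6.51 in Control libraries. The combination libraries were the lowest there and MSA2 and Control overlapped. Id2 gave 95.6 to 96.9% of the ID sum in combination, 97.3 to 98.6% in MSA2 and 81.8 to 84.3% in Control BMDC, so Id2 made up most of that sum. In the MSA2 libraries of B cells the B cell markers were lower. Their neutrophil, monocyte and macrophage, NK cell, T cell and erythroid marker sums were higher. The part of other cells' RNA in this ratio was not tested. Protein levels and dimers were not measured.

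**Figure D3:**
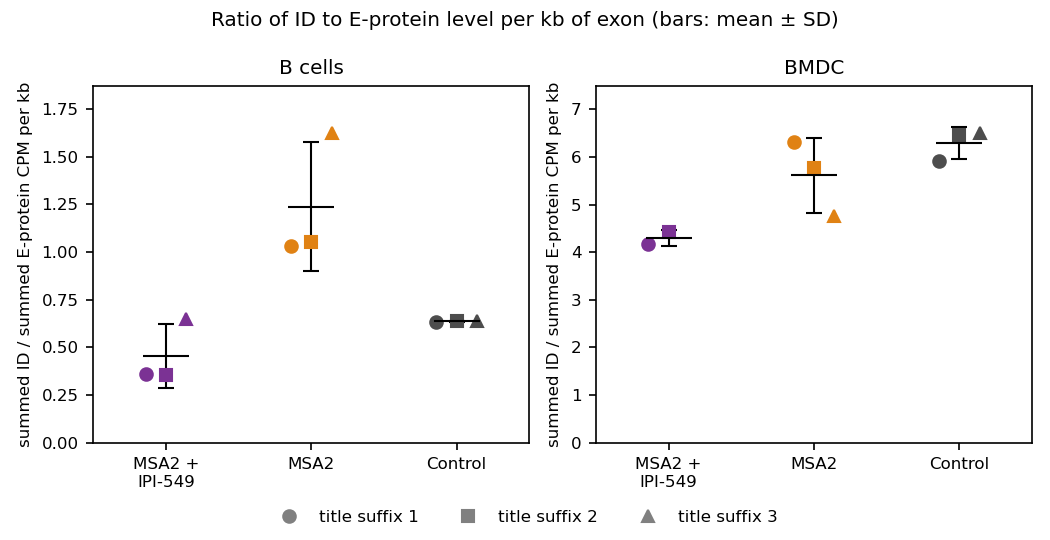
Summed CPM per kb of Id1, Id2 and Id3 divided by that of Tcf3, Tcf4 and Tcf12 (y axis, no unit) for each library, with mean and SD, in B cells (left) and BMDC (right). In B cells MSA2 libraries lie at 1.03 to 1.63, above Control libraries at 0.631 to 0.640, and in BMDC the combination libraries are lowest, at 4.17 and 4.42. The part of other cells' RNA in these ratios was not tested.

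Genes with the most similar pattern were sought for members whose group means spanned more than 1 on the log2 scale at a mean of at least 5 CPM. Likeness was the root mean square difference of log2 CPM over libraries after each gene's own mean was removed. Over the 9 B cell libraries Id2 was closest to Rgs1, at 0.129, and Rcn3, at 0.155, where the median gene was at 0.643. Over the 8 BMDC libraries Id3 was closest to Cebpb, at 0.592, and Fbxo32, at 0.599, where the median gene was at 1.62. These distances are descriptions with no test.

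Other genes of the pathway were taken from lists drawn up by role, 79 genes in all, none of them a member. The lists were drawn up with earlier results of these data known. Their counts beside the background are therefore descriptions, and no excess of calls is read from them. In B cells 42 of 69 measured genes (60.9%) passed for MSA2 against Control, 24 higher and 18 lower, beside the 43.4% of all genes given above. Of all genes 24.9% were higher and 18.5% lower, which is the background for each list that follows in this comparison. The adjusted p-values that follow are edgeR's, from the same quasi-likelihood model, adjusted over all genes of the cell type. The lists overlap the marker lists: Cd79a, Cd79b, Pax5, Ebf1 and Blnk are also among the 12 B cell markers, which all fell.

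Among known E-protein targets of the B lineage, 9 of 15 measured genes fell in MSA2 B cells, 1 rose and 5 had no call, with a median log2 fold change of -0.74. Over all genes tested 18.5% fell and 24.9% rose. Cd79b and Cd79a, the signalling subunits of the antigen receptor, fell by 1.10 ± 0.12 (adjusted p = 2e-05) and 1.07 ± 0.12 (adjusted p = 3.4e-05) on the log2 scale. Pax5, the B lineage commitment factor, fell by 0.89 ± 0.09 (adjusted p = 1.22e-05). The gene that rose was Dntt, the polymerase that adds bases at antigen receptor joints, which averaged 2.16 CPM in MSA2 and 0.0142 CPM in Control libraries and is named here after its value was seen. In combination B cells 9 of 15 rose and 3 fell against MSA2, with a median of 0.81, where 14.1% of all genes rose and 22.9% fell. Cd79a rose by 1.07 ± 0.12 (adjusted p = 3.52e-05). Those that fell were Dntt, Cdkn1a and Socs3, an inhibitor of cytokine signalling (-1.04 ± 0.11, adjusted p = 1.96e-05).

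Among genes tied to Tcf4 in plasmacytoid dendritic cells, 7 of 14 rose and 5 fell in MSA2 B cells, with a median of 0.38. Those that fell are also expressed by B cells, among them Ly6d (-1.19 ± 0.11, adjusted p = 5.46e-06), the DNA sensor Tlr9 (-0.80 ± 0.24, adjusted p = 0.0185) and the transcription factors Spib (-0.72 ± 0.09, adjusted p = 8.26e-05) and Bcl11a (-0.51 ± 0.09, adjusted p = 0.000732). Those that rose included Siglech, a surface marker of plasmacytoid dendritic cells, at 10.4 CPM in MSA2 and 0.113 CPM in Control libraries, and Runx2 at 17.4 CPM in MSA2 and 0.315 CPM in Control libraries, both named after their values were seen. Of 8 genes tied to Id2 in conventional dendritic cells 5 rose and 0 fell, with a median of 0.88. Itgae, the CD103 integrin gene, rose by 3.36 ± 0.15 (adjusted p = 3.02e-08). The part of other cells' RNA in these rises was not tested.

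Among receptors, SMAD factors and other known regulators of the Id genes, 6 of 15 rose and 2 fell in MSA2 B cells. Acvrl1 and Bmpr2, receptors of the BMP family, rose by 2.80 ± 0.16 (adjusted p = 1.89e-07) and 1.95 ± 0.15 (adjusted p = 1.28e-06). Neither a link to the higher Id1 nor the part of other cells' RNA in these rises was tested. Tgfb1 and its receptor gene Tgfbr2 fell by 0.35 ± 0.09 (adjusted p = 0.0109) and 0.28 ± 0.07 (adjusted p = 0.00826). Of the 4 helix-loop-helix partners measured 2 rose and 2 fell. Those that fell were Lyl1 (-0.91 ± 0.11, adjusted p = 4.01e-05) and the secretory-cell factor Bhlha15 (-0.58 ± 0.13, adjusted p = 0.00369). Of 9 cofactors 2 rose and 0 fell, among them the acetyltransferase Kat2b (0.56 ± 0.09, adjusted p = 0.000355). Of 4 repressors that compete for E-boxes 1 rose, which was Zeb2 (0.46 ± 0.09, adjusted p = 0.00198), and 0 fell.

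In B cells 2 of 69 pathway genes (2.9%) passed for the combination against Control, beside 1.06% of all genes, and 9 had an unadjusted p under 0.05. Socs3 fell by 1.52 ± 0.11 (adjusted p = 2.73e-05), and the interferon regulatory factor gene Irf7 rose by 1.10 ± 0.12 (adjusted p = 0.000472). Both were also called in the same direction for MSA2 against Control. There Socs3 was at -0.48 ± 0.11 (adjusted p = 0.00484) and Irf7 at 1.29 ± 0.12 (adjusted p = 4.64e-06). Set against MSA2, the combination had 44 of 69 (63.8%) called, 20 higher and 24 lower, where 37% of all genes were called, 14.1% higher and 22.9% lower. Acvrl1 fell by 2.84 ± 0.17 (adjusted p = 1.64e-07).

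**Figure D4:**
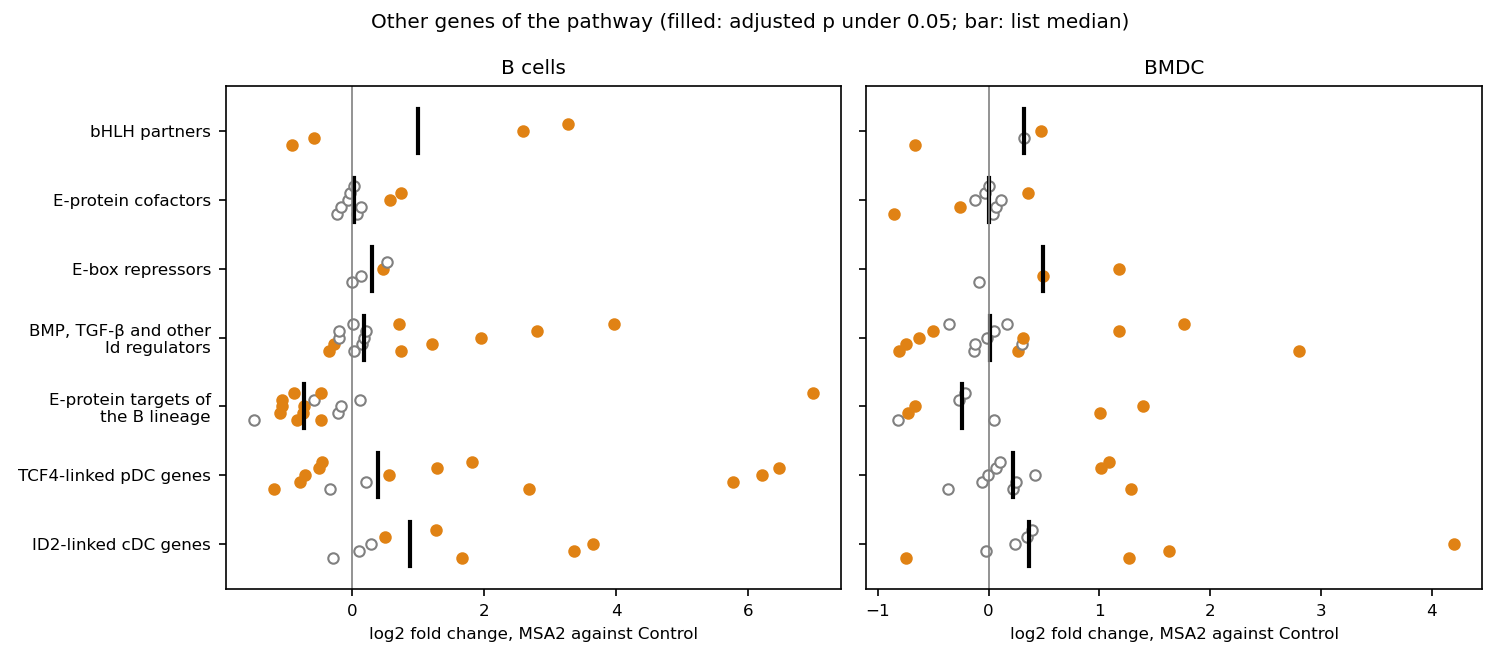
log2 fold change for MSA2 against Control (x axis, scales differ) of each measured pathway gene, by list, in B cells (left) and BMDC (right), with called genes filled and the list's median as a bar. In B cells the E-protein targets have a median of -0.74, with 9 genes called below 0 and 1 above, and the genes tied to Id2 have a median of 0.88.

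In BMDC 27 of 58 measured pathway genes (46.6%) passed for MSA2 against Control, 17 higher and 10 lower, where 28.2% of all genes passed, 14.6% higher and 13.5% lower. The E-box repressors Zeb1 and Zeb2 rose by 1.18 ± 0.08 (adjusted p = 1.58e-06) and 0.49 ± 0.07 (adjusted p = 0.000465), 2 of the 3 measured in that list. Of 11 genes tied to Tcf4 in plasmacytoid dendritic cells 3 rose and 0 fell, and a link to the higher Tcf4 was not tested. Those that rose were Irf7 (1.29 ± 0.13, adjusted p = 2.31e-05), Tlr9 (1.08 ± 0.16, adjusted p = 0.000422) and Irf8 (1.02 ± 0.12, adjusted p = 8.79e-05), all of which other myeloid cells also express. Of 8 genes tied to Id2 in conventional dendritic cells 3 rose and 1 fell. Ccr7, the receptor for migration to lymph nodes, rose by 1.63 ± 0.15 (adjusted p = 1.51e-05), and Clec9a, a receptor for dead cells, fell by 0.75 ± 0.13 (adjusted p = 0.00161).

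Of 16 regulators of the Id genes in BMDC 5 rose and 4 fell for MSA2 against Control. The list's median log2 fold change was 0.01. Only the 4 that fell are named here, since they went against the majority of the list. The TGF-β receptor gene Tgfbr1 (-0.81 ± 0.11, adjusted p = 0.000302) and the transcription factor Nfil3 (-0.75 ± 0.21, adjusted p = 0.0207) fell. So did Acvrl1 (-0.63 ± 0.08, adjusted p = 0.000105) and the inhibitory SMAD gene Smad7 (-0.50 ± 0.14, adjusted p = 0.0216). A link between this list and the lower Id1 and Id3 was not tested. Of 8 E-protein targets 2 rose and 2 fell, with the cell-cycle inhibitor Cdkn1a up by 1.01 ± 0.15 (adjusted p = 0.000497) and the transcription factors Foxo1 and Irf4 at -0.73 ± 0.10 (adjusted p = 0.000294) and -0.66 ± 0.10 (adjusted p = 0.000533). Of 9 cofactors 1 rose and 2 fell, led by Cbfa2t3, a corepressor that binds E proteins (-0.85 ± 0.11, adjusted p = 0.000207). Of 3 helix-loop-helix partners 1 rose and 1 fell, with Tal1, whose groups overlapped, at 0.48 ± 0.13 (adjusted p = 0.0208).

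In BMDC 19 of 58 (32.8%) passed for the combination against Control, 12 higher and 7 lower, where 12.9% of all genes passed, 7.51% higher and 5.38% lower. Smad1, a carrier of BMP signals, rose by 0.92 ± 0.12 (adjusted p = 0.000342), and Smad7 fell by 0.85 ± 0.16 (adjusted p = 0.00558). Without replicate 1 of the combination the count was 8. Against MSA2, 0 of 58 passed for the combination in edgeR and limma-voom and 2 in DESeq2, with 13 at an unadjusted p under 0.05. Markers of other cells differed in level in BMDC. Monocyte and macrophage markers, many of which BMDC share, summed to 16656 to 17387 CPM in combination, 14659 to 17794 CPM in MSA2 and 18085 to 20354 CPM in Control libraries. Neutrophil markers summed to 182 to 279 CPM in combination, 257 to 370.2 CPM in MSA2 and 107 to 341 CPM in Control libraries, and B cell markers to 108 to 115 CPM in combination, 93.6 to 105 CPM in MSA2 and 115 to 126 CPM in Control libraries. The part of these cells' RNA in the BMDC results was not tested. Erythroid markers were at 1.99 to 2.39 CPM in combination, 2.29 to 3.26 CPM in MSA2 and 1.153 to 1.95 CPM in Control libraries. The T cell markers summed to 13.6 to 14.1 CPM in combination, 12.3 to 13.6 CPM in MSA2 and 16.1 to 17.3 CPM in Control libraries, and the NK cell markers to 8.76 to 9.55 CPM in combination, 8.49 to 9.91 CPM in MSA2 and 6.72 to 8.995 CPM in Control libraries.

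The split of Id3 by replicate in B cells was shared by other genes. The 4 genes nearest to Id3 over the 9 libraries, chosen after the values were seen, were the stress gene Gadd45a (0.308 by the measure of likeness above), the AP-1 subunit gene Junb (0.337), the Notch pathway gene Nrarp (0.365) and the glucocorticoid-induced gene Tsc22d3 (0.380), where the median gene was at 0.727. Junb had 778, 769 and 1381 CPM in combination libraries, 804, 809.9 and 1430.2 CPM in MSA2 libraries and 1229, 1547 and 1370.4 CPM in Control libraries. Gadd45a had 58.8, 47.6 and 121 CPM in combination libraries, 45.4, 48.4 and 112 CPM in MSA2 libraries and 75.7, 66.7 and 80.2 CPM in Control libraries. In both treated groups the replicate 3 library was the highest for each of these genes. Among Control libraries it was the highest for Gadd45a and not for the others. These genes were picked by likeness to Id3 over the same libraries, so a shared peak in replicate 3 follows from the choice. How many of all genes have such a peak was not counted.

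**Figure D5:**
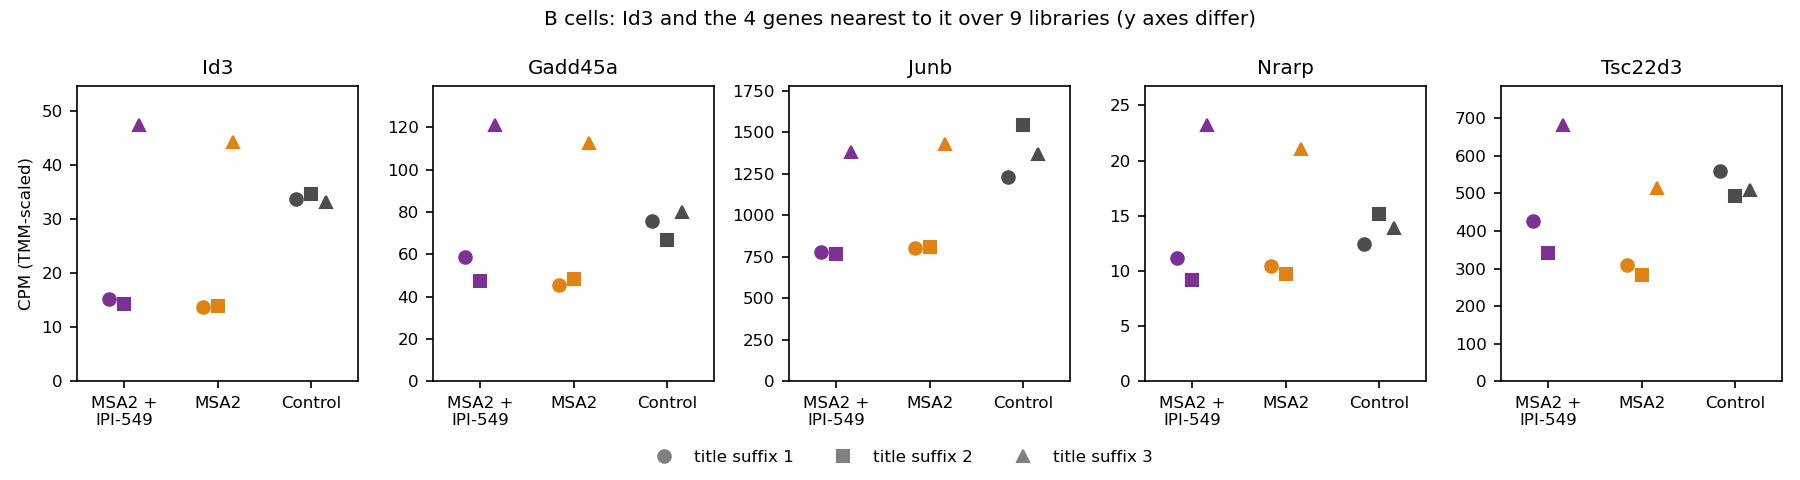
Level (y axis, TMM-scaled CPM, separate axes) of Id3 and the 4 genes nearest to it in every B cell library, by group, with the symbol giving the replicate. Replicate 3, the triangle, is the highest library of both treated groups in all 5 panels, for Id3 at 47.4 CPM in the combination and 44.3 CPM in MSA2.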

How the data were processed

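RNA sequencing of 9 B cell and 8 BMDC libraries was analysed. Per gene, the tables deposited by the authors give expected counts. The tools named, per the submitters' processing notes, are RSEM 1.3.3, STAR 2.7.8a, cutadapt 4.8, FastQC 0.11.8 and MultiQC 1.20, and the build is GRCm38 (mm10). RSEM shares reads that map to several genes among them. The values were whole numbers already. Strandedness and annotation release are not given in the sources used here. RNA was isolated with a Qiagen kit and libraries were made with an Illumina kit, per the labels' protocols.

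B cells and BMDC were fitted separately, 3 groups each, with edgeR 4.0.16 under R 4.3.3. Low counts were removed by filterByExpr, libraries were scaled by TMM and contrasts were tested by quasi-likelihood. Calls required an adjusted p (Benjamini-Hochberg) under 0.05. Fold changes are on the log2 scale with their SE. The members and the 15 gene lists were chosen with earlier results of these data known. The text names, per list and comparison, up to 4 called genes of at least 5 CPM, those against the majority of the list first and then by fold change. A gene that this rule would name is not reported here. Scripts were tested on simulated data. Tried as alternatives were other scaling factors (RLE, upper quartile), other filters (none, or 1 CPM in 3 libraries), DESeq2 1.42.0, limma-voom (limma 3.58.1), the compared groups alone, the replicate number of the titles as a block, and leaving out each library.

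The replicate numbers come from the titles. After removal of group means, same-numbered B cell libraries of the combination and MSA2 correlated at 0.383 to 0.609 over 3 pairs. Differently numbered libraries of these groups correlated at -0.602 to 0.363. The titles state no pairing, so a pairing of these groups by number is a hint from the data only. In the B cell comparisons with Control the same-numbered correlations were -0.0476 to 0.144 for MSA2 and -0.00628 to 0.0692 for the combination. In BMDC they ran between -0.179 and 0.163. These values gave no sign of a pairing by number.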

Additional observations from a re-analysis of the deposited data

Results flagged for a closer look

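Several results had opposite directions in the 2 cell types, with every library of a group on the same side of the other group in each. The difference between cell types was not tested for any of them. Only the members and the named pathway genes were looked through, and the share of all genes with such opposite directions was not counted. Genes whose groups did not overlap were common, at 53.9% in B cells and 41.5% in BMDC for MSA2 against Control. For the combination they were 47.2% and 27.3% against MSA2, and 18.7% and 44.7% against Control. Among the members, for MSA2 against Control, the log2 fold change in B cells and in BMDC was 2.98 and -2.22 for Id1, -0.29 and 0.65 for Tcf4, and -0.30 and 0.18 for Tcf12. For the combination against MSA2 it was -3.59 and 0.51 for Id1, of which the BMDC value did not pass the threshold.

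Among the pathway genes, for MSA2 against Control, Acvrl1 was at 2.80 in B cells and -0.63 in BMDC, and Nfil3 at 0.74 and -0.75. Clec9a was at 1.26 in B cells and -0.75 in BMDC. The genes lower in B cells and higher in BMDC were Tlr9 (-0.80 and 1.08), Spib (-0.72 and 0.42), Irf8 (-0.47 and 1.02) and Tgfbr2 (-0.28 and 0.26). For the combination against MSA2, Acvrl1 was at -2.84 in B cells and 0.22 in BMDC, Irf4 at 0.74 and -0.29, and Tgfbr2 at 0.35 and -0.08. For the combination against Control, Cdkn1a was at -0.26 in B cells and 0.77 in BMDC. The BMDC value of Spib and this B cell value of Cdkn1a did not pass the threshold. Nor did any BMDC value for the combination against MSA2. In B cells the MSA2 libraries also differed from the others in markers of other cells, whose part in these values was not tested.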

How the results depend on the processing

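Of 612 fold changes of the members recomputed under the alternatives, 605 moved by less than 1 SD of the replicates, 7 moved by more and 0 called values reversed. Calls of members were lost 12 times, 11 of them for Tcf12 in BMDC with MSA2 against Control, where upper quartile factors gave 0.10 in place of 0.18, and gained 5 times. With no filter Id2 (-0.32) and Id3 (0.82) of BMDC were called for the combination against MSA2. The cause of these shifts was not tested. The genes called for the combination against Control in B cells numbered 171, against 359 with no filter, 260 with the replicate block and 385 with DESeq2. Without replicate 3 of every group, an alternative added after seeing the data, 1 member (Id3) was called there instead of 0, which is no test of Id3 because those libraries were left out for their Id3 values. For the combination against MSA2 in BMDC, 0 genes were called, against 561 with no filter, 158 with DESeq2, 3 with limma-voom and 13 with the compared groups alone, 0 pathway genes against 6 with no filter and 2 with DESeq2, and 0 members against 2 with no filter.

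Leaving out each library gave, in B cells, 5877 to 7374 genes, 40 to 48 pathway genes and 5 to 6 members called for MSA2 against Control. It gave 4977 to 6080 genes, 40 to 46 pathway genes and 5 members for the combination against MSA2, and 91 to 220 genes (91 without Control replicate 2), 2 pathway genes and 0 members for the combination against Control. In BMDC it gave 2944 to 3794 genes, 24 to 27 pathway genes and 3 to 4 members for MSA2 against Control. It gave 843 to 2177 genes (843 without replicate 1 of the combination), 8 to 22 pathway genes and 2 to 3 members for the combination against Control, and 0 to 99 genes (99 without replicate 2 of MSA2), 0 to 3 pathway genes and 0 members for the combination against MSA2. Where the combination of BMDC was left with 1 library, that library was assumed to vary like the other groups.

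The replicate block treats same-numbered libraries as matched, which the labels do not state. With it, 6401 genes, 47 pathway genes and 5 members were called for the combination against MSA2 in B cells. Without it these were 5985, 44 and 5, and it changed no call of a member there. In BMDC the block took away the call of Tcf12 for MSA2 against Control. By best correlation across groups, 7 of 9 B cell libraries and 2 of 8 BMDC libraries matched their own number, a hint from the data only. The low counts of Id1 in B cells and of Id1 and Id3 in treated BMDC limit their precision.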
